A study of Homo sapiens with 20 samples.

Results

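The genes described here are ATOH8, MGP and 8 further genes that belong to or answer the BMP-SMAD pathway: ID1, ID2, ID3, SMAD6, SMAD7, SMAD9, BMP4 and BAMBI. They were chosen by name, with their change upon FRA1 silencing in these samples known, and they are 10 of the 58870 genes in the RNA-seq count table. To them were added the 61 of 54563 consensus FRA1 Cut&Run peaks that lay within 50 kb of a transcription start of one of the genes or overlapped its body. Because the choice used the silencing contrast, the changes of these 10 genes upon silencing are given as a description without a test. The comparison between the cell lines and the Cut&Run counts were not used in the choice, and these were tested. The comparison between the lines shares its si-NT samples with the silencing contrast, so it is not fully independent of the choice.

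RNA was sequenced from A375 and 1205Lu, both established human melanoma cell lines, after the cells were given non-targeting siRNAs (si-NT) or siRNAs directed at human FRA1 (group name si-FRA1, written si-FOSL1 in the sample titles). FRA1 is a FOS-family subunit of the AP-1 transcription factor and is encoded by FOSL1. There were 3 replicates in each of the groups, 12 samples in all, and the labels do not say whether they came from separate cultures, so the p-values measure only the spread between these samples. Cut&Run, which cuts and sequences DNA next to an antibody-bound protein, was performed on cells with no siRNA label, with 3 FRA1 samples and 1 IgG control in each cell line.

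BMP ligands bind a complex of type I and type II receptor kinases that phosphorylates SMAD1, SMAD5 and SMAD9 (also called SMAD8), which enter the nucleus with SMAD4 and bind GC-rich elements in target genes. The ID genes are among the most direct targets, and their proteins lack a DNA-binding region and hold E proteins away from DNA. SMAD6, SMAD7 and BAMBI are induced by the pathway and restrain it, MGP encodes a secreted matrix protein that binds BMP ligands, and ATOH8 encodes a basic helix-loop-helix transcription factor that is a known BMP and SMAD target in other cell types.

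The RNA-seq totals were 20573412 to 32518903 counts per sample. FOSL1 itself, the targeted gene, was at 407 to 423 CPM (the count relative to the TMM-scaled library size) in A375 si-NT and at 25.6 to 25.9 CPM in A375 si-FRA1. The 1205Lu samples ranged from 477 to 492 CPM in si-NT and from 65.0 to 70.8 CPM in si-FRA1. Thus 6.22% of the control level remained in A375 and 14.1% in 1205Lu. Of 8 melanocyte-lineage markers, 3 reached 1 CPM in A375 si-NT, 5 in A375 si-FRA1 and 4 in both 1205Lu groups. MLANA, TYR and DCT were below 1 CPM in every group. SOX10 was at 43.4 to 44.2 CPM in A375 si-NT and at 900 to 930 CPM in 1205Lu si-NT, and S100B and S100A1 were likewise higher in 1205Lu. MITF had the opposite order, at 49.9 to 54.6 CPM in A375 si-NT and 60.4 to 67.1 CPM in A375 si-FRA1. In 1205Lu it was at 3.29 to 3.73 CPM with si-NT and 2.77 to 4.06 CPM with si-FRA1. Upon silencing SOX10 was at 31.97 to 33.4 CPM in A375 and 776 to 793 CPM in 1205Lu, and the summed melanocyte-lineage list was 97.3 to 101.2 CPM in A375 si-NT, 98.8 to 105 CPM in A375 si-FRA1, 1520 to 1555 CPM in 1205Lu si-NT and 1258 to 1284 CPM in 1205Lu si-FRA1. The fibroblast list (6 genes, of which 3 or 4 reached 1 CPM) summed to 33.8 to 36.3 CPM in A375 si-NT and 64.6 to 66.3 CPM in A375 si-FRA1 and 197 to 206 CPM in 1205Lu, with COL1A2 and DCN below 1 CPM in every group. Of the 4 keratinocyte markers, KRT10 was at 34.2 to 45.5 CPM over all samples and KRT5, KRT14 and KRT1 were below 1 CPM in every group. Of the 3 leukocyte markers, PTPRC and CD3E were below 1 CPM in every group, and CD68 was at 77.0 to 78.9 CPM in A375 si-NT, 55.8 to 59.5 CPM in A375 si-FRA1, 16.7 to 18.0 CPM in 1205Lu si-NT and 6.51 to 8.02 CPM in 1205Lu si-FRA1. Of the 3 endothelial markers, PECAM1 and CDH5 were below 1 CPM in every group, and VWF was at 0.37 to 0.69 CPM in A375 and 1.07 to 1.78 CPM in 1205Lu. The part of these markers in the changes below was not tested, and in bulk samples fewer expressing cells and less RNA per cell cannot be told apart.

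Upon FRA1 silencing, 9 of the 10 genes were higher in A375 and 8 of 10 in 1205Lu. ATOH8, MGP and SMAD7 were past the call rule, an adjusted p under 0.05 over all genes with an absolute log2 fold change over 1, in both cell lines. ID1, ID3 and BMP4 were past it in A375 alone and ID2 in 1205Lu alone, which is a statement about thresholds and not about a difference between the lines. The count past the rule was thus 6 of 10 in A375, where 2.77% of 16899 tested genes were called higher with si-FRA1 (5.56% in either direction), and 4 of 10 in 1205Lu, where 1.09% of 17136 were (3.13% in either direction). The median log2 fold change of the genes was 1.29 in A375 and 0.73 in 1205Lu, beside -0.0026 and -0.0048 over all tested genes. All 10 genes passed the filter on low counts in both lines. As the genes were named for this change, nothing is read from these counts.

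**Figure D1:**
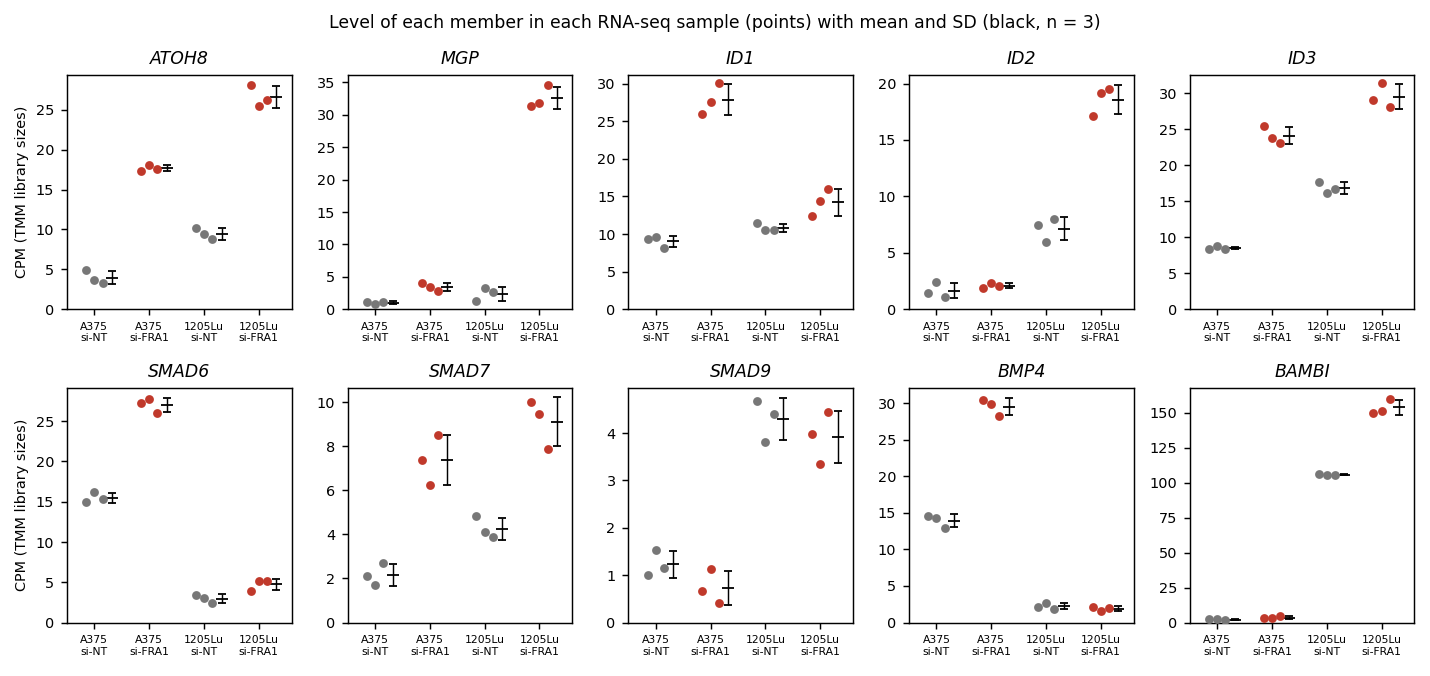
Level of each gene in every RNA-seq sample, as CPM on a linear axis that starts at 0. Grey points are si-NT and red points si-FRA1 samples of A375 and 1205Lu, and the black mark gives the mean and SD of 3. The si-FRA1 points of ATOH8, MGP, ID1, ID3, SMAD6, SMAD7 and BAMBI lie above the si-NT points of the same cell line in both lines, while SMAD9 overlaps in both.

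ATOH8 (chr2:85751344-85791383, plus strand, GRCh38, annotation GENCODE v44) had 4.88, 3.71 and 3.31 CPM in the A375 si-NT samples and 17.3, 18.1 and 17.6 CPM in the si-FRA1 samples. In 1205Lu the control levels were 10.2, 9.38 and 8.75 CPM, and the silenced samples had 28.2, 25.5 and 26.2 CPM. Every si-FRA1 sample lay above every si-NT sample of its line, and the groups were separated by a wide gap. The log2 fold change was 2.16 (SE 0.12) in A375 and 1.48 (SE 0.08) in 1205Lu, or 4.46-fold and 2.78-fold, and the change in A375 exceeded that in 1205Lu by 0.67 on the log2 scale (SE 0.15). The raw counts behind these levels were 80 to 108 in A375 si-NT, the lowest group.

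MGP (chr12:14880864-14885857, minus strand) had the widest difference of the 10 genes, and it was in 1205Lu. The si-NT samples there had 1.23, 3.33 and 2.59 CPM, and the si-FRA1 samples 31.4, 31.9 and 34.5 CPM. In A375 the si-NT samples had 1.17, 0.79 and 1.08 CPM and the si-FRA1 samples 4.04, 3.38 and 2.75 CPM. The groups did not overlap in either line, but the control groups rested on few reads, 20 to 26 counts in A375 and 37 to 75 in 1205Lu. The log2 fold change was 1.74 (SE 0.25) in A375 and 3.81 (SE 0.16) in 1205Lu, which is 3.35-fold and 14.0-fold. It ranged from 3.45 to 4.13 in 1205Lu when each sample in turn was left out. The change in A375 minus that in 1205Lu was -2.06 on the log2 scale (SE 0.36).

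The 3 ID genes, which encode inhibitors of basic helix-loop-helix factors, differed from one another between the lines. ID1 (chr20:31605283-31606515, plus strand) was at 9.35, 9.60 and 8.19 CPM in A375 si-NT and at 25.9, 27.6 and 30.1 CPM in A375 si-FRA1. The 1205Lu controls had 11.4, 10.5 and 10.5 CPM, and 12.4, 14.4 and 16.0 CPM were found after silencing. The groups were apart in both lines, by far more in A375, and the log2 fold changes were 1.62 (SE 0.09) and 0.38 (SE 0.10).

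ID3 (chr1:23557926-23559501, minus strand) followed the same order. Its levels were 8.40, 8.73 and 8.40 CPM in A375 si-NT and 25.4, 23.8 and 23.1 CPM in A375 si-FRA1. In 1205Lu the controls had 17.7, 16.1 and 16.6 CPM and the silenced samples 29.1, 31.4 and 28.1 CPM. No sample of one treatment reached the other, and the log2 fold changes were 1.5 (SE 0.08) in A375 and 0.79 (SE 0.07) in 1205Lu. The change in A375 exceeded that in 1205Lu by 1.22 (SE 0.14) for ID1 and by 0.69 (SE 0.11) for ID3 on the log2 scale.

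ID2 (chr2:8678845-8684461, plus strand) had the opposite order. In A375 the control samples had 1.4, 2.41 and 1.12 CPM and the silenced samples 1.87, 2.33 and 2.10 CPM, and the groups overlapped. The 1205Lu controls had 7.47, 6.00 and 7.97 CPM and the silenced samples 17.1, 19.1 and 19.5 CPM, without overlap. The log2 fold change was 0.34 (SE 0.28) in A375 on 27 to 61 counts per sample and 1.36 (SE 0.11) in 1205Lu, a difference of -1.04 (SE 0.27).

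Of the inhibitory SMADs, SMAD7 (chr18:48919853-48950965, minus strand) competes for the receptors of both the BMP and TGFβ branches and SMAD6 acts mainly on the BMP branch. SMAD7 was at 2.12, 1.70 and 2.69 CPM in A375 si-NT and at 7.37, 6.25 and 8.53 CPM in A375 si-FRA1. In 1205Lu the controls lay at 4.82, 4.09 and 3.86 CPM and the silenced samples at 10.0, 9.45 and 7.88 CPM. The groups were apart in both lines, with log2 fold changes of 1.76 (SE 0.18) and 1.08 (SE 0.15), the second just past the limit of 1.

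SMAD6 (chr15:66702236-66782849, plus strand) stayed under that limit in both lines although its groups did not overlap. It was at 14.95, 16.2 and 15.4 CPM in A375 si-NT and 27.3, 27.7 and 26.1 CPM in A375 si-FRA1, a log2 fold change of 0.79 (SE 0.07). The 1205Lu controls had 3.45, 3.02 and 2.38 CPM and the silenced samples 3.94, 5.17 and 5.11 CPM, a log2 fold change of 0.66 (SE 0.19). The estimates differed by 0.13 on the log2 scale (SE 0.18), less than the error.

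SMAD9 (chr13:36844831-36920887, minus strand), a receptor-activated SMAD of the BMP branch, was the 1 gene whose log2 fold change was negative in both lines. Its levels were 0.99, 1.54 and 1.16 CPM in A375 si-NT, 0.67, 1.13 and 0.40 CPM in A375 si-FRA1, 4.68, 3.82 and 4.39 CPM in 1205Lu si-NT and 3.99, 3.34 and 4.44 CPM in 1205Lu si-FRA1. The groups overlapped in both lines. The log2 fold changes were -0.76 (SE 0.39) in A375, on 10 to 39 counts per sample, and -0.15 (SE 0.17) in 1205Lu. The A375 value became -1.17, past the call rule, when A375 si-FRA1 replicate 2 was left out.

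The ligand BMP4 (chr14:53949736-53958761, minus strand) differed between the lines. In A375 the controls had 14.6, 14.3 and 12.9 CPM and the silenced samples 30.4, 29.9 and 28.3 CPM, a log2 fold change of 1.08 (SE 0.07). The 1205Lu controls had 2.13, 2.67 and 1.85 CPM and the silenced samples 2.14, 1.6 and 2.01 CPM, overlapping groups with a log2 fold change of -0.22 (SE 0.24). The difference between the lines was 1.29 on the log2 scale (SE 0.20).

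BAMBI (chr10:28677510-28682932, plus strand) encodes a transmembrane pseudoreceptor without a kinase domain that resembles a type I receptor. It was at 2.39, 2.33 and 1.74 CPM in A375 si-NT and 3.00, 3.08 and 4.57 CPM in A375 si-FRA1. The 1205Lu controls were at 106, 106 and 105 CPM and the silenced samples at 150.0, 152 and 160.0 CPM. No groups overlapped, and the log2 fold changes were 0.71 (SE 0.22) and 0.52 (SE 0.03). The difference of 0.16 (SE 0.16) was no larger than its error.

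**Figure D2:**
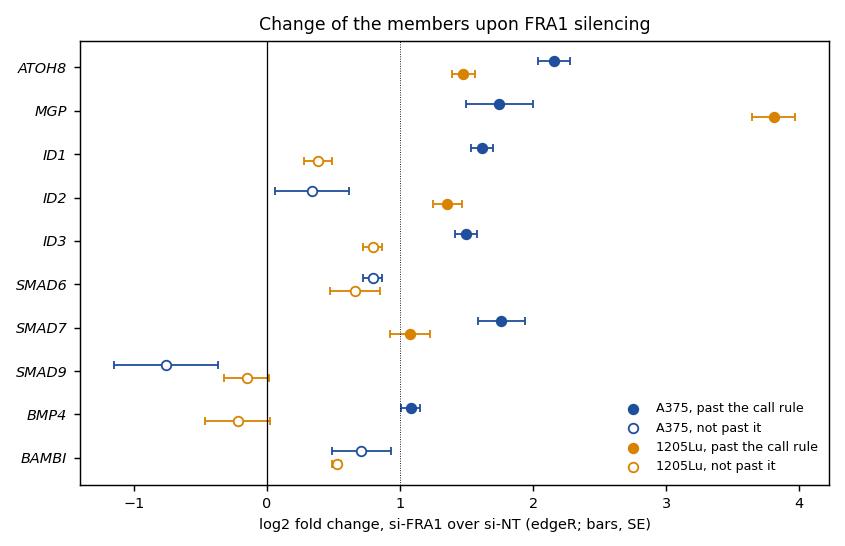
Log2 fold change of each gene upon FRA1 silencing (si-FRA1 over si-NT, points) with its SE (bars) in A375 (blue) and 1205Lu (orange), 3 samples against 3. Filled points are past the call rule, and the dotted line marks a log2 fold change of 1. MGP is at 1.74 in A375 and 3.81 in 1205Lu, while ID1, ID3 and BMP4 are further to the right in A375.

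Counting genes without overlap between the groups, 8 of 10 were higher with si-FRA1 in A375 and 8 of 10 in 1205Lu, against 29.2% and 26.1% of all tested genes. Among all genes, 25 of the 15056 that were tested in both lines were called higher in both (0.166%), and 3 of these were ATOH8, MGP and SMAD7. The choice of the genes fixed this count, and it has no test.

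The cell lines were then compared without silencing, a contrast that the choice of genes did not use, although it did use the same si-NT samples. With si-NT, 9 of the 10 genes were called: SMAD6 and BMP4 were higher in A375, where 18.9% of 18050 tested genes were called higher, and ATOH8, MGP, ID2, ID3, SMAD7, SMAD9 and BAMBI were higher in 1205Lu, where 21.3% were. With 40.2% of all genes called in 1 direction or the other, the 2 lines differed widely in general. BAMBI differed most: 2.15 ± 0.36 CPM in A375 and 106 ± 0.47 CPM in 1205Lu (SD, n = 3), a log2 difference of -5.69 (SE 0.07, edgeR adjusted p = 9.3e-23) or 51.65-fold. BMP4 was 6.00-fold higher in A375 (log2 difference 2.59, SE 0.15, edgeR adjusted p = 3.2e-12), at 13.9 ± 0.90 against 2.21 ± 0.42 CPM. SMAD6 was 4.96-fold higher in A375 (2.31, SE 0.14, edgeR adjusted p = 5.6e-12), at 15.5 ± 0.63 against 2.95 ± 0.54 CPM.

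Among the genes higher in 1205Lu, on the same scale of A375 over 1205Lu, ID2 differed by -2.18 (SE 0.23, edgeR adjusted p = 4.2e-08), SMAD9 by -1.87 (SE 0.23, edgeR adjusted p = 3.7e-07) and ATOH8 by -1.33 (SE 0.15, edgeR adjusted p = 1.6e-07). MGP differed by -1.29 (SE 0.34, edgeR adjusted p = 0.0022). ID3 and SMAD7 lay close to the fold limit, at -1.06 (SE 0.10) and -1.05 (SE 0.21). ID1, at 9.05 ± 0.75 and 10.8 ± 0.55 CPM, differed by -0.33 (SE 0.11, edgeR adjusted p = 0.011) and was not called. MGP was at -0.96 without 1205Lu si-NT replicate 2, and SMAD7 at -0.86 to -0.99 without A375 si-NT replicate 1 or 2 or 1205Lu si-NT replicate 1, so that neither was called there. Gene copy number in the 2 lines was not measured, and its part was not tested.

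Per kilobase of exon, which allows levels to be compared between genes, ID1 was the highest of the 10 in A375 si-NT (7.34 ± 0.61 CPM per kb, SD, n = 3), followed by ID3 (5.69 ± 0.13), BMP4 (4.50 ± 0.29) and SMAD6 (1.81 ± 0.07). Below SMAD6, neighbours in the order overlapped from BAMBI through ID2, SMAD7 and ATOH8 to MGP, and SMAD9 was the lowest at 0.21 ± 0.05 CPM per kb. In 1205Lu si-NT the first place was taken by BAMBI at 49.5 ± 0.22 CPM per kb, with ID3 (11.2 ± 0.55), ID1 (8.75 ± 0.44) and ID2 (3.23 ± 0.46) next, each apart from its neighbour. From SMAD7 through ATOH8, MGP and SMAD9 to BMP4 the neighbours overlapped, and SMAD6 was the lowest at 0.35 ± 0.06. With si-FRA1, MGP in 1205Lu was at 11.3 ± 0.59 CPM per kb and overlapped ID1 at 11.6 ± 1.46, while in A375 si-FRA1 it was eighth of the 10 at 1.17 ± 0.22.

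The genes whose pattern over the 12 samples was most like that of 4 of the genes were found by Pearson correlation of log2 CPM after subtracting the mean of each cell line, among 10575 protein-coding genes. ATOH8 was nearest to SLC16A4 (r = 0.995), SESN3 (r = 0.992) and ADAM19 (r = 0.991). SLC16A4, a monocarboxylate transporter, had log2 fold changes of 1.67 in A375 and 1.08 in 1205Lu, and SESN3, a sestrin, had 1.36 and 0.87. ID3 was nearest to ATP2B1, a plasma-membrane calcium pump (r = 0.997, log2 fold changes 1.22 and 0.73), AGO2 (r = 0.995) and EEA1 (r = 0.994). For ID1 the nearest were CHD4, ZHX1 and RPS23 (r = 0.990 to 0.991), and for MGP SQSTM1, WDR75 and NR3C1 (r = 0.980 to 0.982). With the treatment shared by all samples of a group, such values are high for many genes, and CHD4 changed by only 0.12 and 0.02 on the log2 scale.

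Other genes of the BMP pathway changed in both directions in A375. A list of 56 further ligands, receptors, SMADs, antagonists and targets, grouped by their textbook roles, was made with earlier results of these data known. Its counts are therefore a description and no independent evidence of a direction. Of these, 55 were in the table, 39 were tested in A375 and 45 in 1205Lu. In A375, 3 were called higher with si-FRA1 (GDF6, SKIL and HEY1) and 4 lower (BMP6, RGMB, FST and TCF3), beside 2.77% and 2.79% of all tested genes. In 1205Lu, 1 was called higher (HEY1) and 0 lower by edgeR, beside 1.09% and 2.04%. At an unadjusted edgeR p under 0.05, 7 were lower in 1205Lu, and DESeq2 also called 0 lower there. The median log2 fold change over the list was 0.06 in A375 and 0.14 in 1205Lu, beside medians near 0 over all tested genes.

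Among the ligands, GDF6 rose in A375 from 2.98, 3.08 and 2.11 CPM to 9.11, 8.75 and 9.17 CPM (log2 fold change 1.72, SE 0.15, edgeR adjusted p = 9.3e-10). In 1205Lu it had 8 to 18 counts per sample and a log2 fold change of -0.14 (SE 0.48). BMP6 fell in A375 from 1.17, 0.79 and 1.12 CPM to 0.76, 0.13 and 0.44 CPM (-1.14, SE 0.47, edgeR adjusted p = 0.046). That call rests on 3 to 27 counts per sample and was lost with DESeq2 (adjusted p = 0.056), with no filter (edgeR adjusted p = 0.059), and without A375 si-FRA1 replicate 2 or 3 or si-NT replicate 1 or 3 (edgeR adjusted p = 0.10 to 0.20). Without si-FRA1 replicate 2 the log2 fold change was -0.74. In 1205Lu BMP6 was at 27.3 to 28.7 CPM with si-NT and 27.9 to 30.2 CPM with si-FRA1.

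Among the receptors and co-receptors, RGMB, a GPI-anchored BMP co-receptor, fell in A375 from 58.4, 62.4 and 61.0 CPM to 28.5, 30.05 and 30.2 CPM (-1.04, SE 0.05, edgeR adjusted p = 1.4e-14). In 1205Lu its log2 fold change was -0.37 (SE 0.05). The type I receptor BMPR1A had log2 fold changes of 0.43 (SE 0.05) and 0.49 (SE 0.05), and the type II receptor BMPR2 of 0.26 (SE 0.04) and 0.24 (SE 0.03), all under the fold limit. On the adjusted p alone, 6 of 10 tested receptors were higher with si-FRA1 and 1 lower in A375, and 5 of 9 were higher and 2 lower in 1205Lu. On that basis 25.7% and 25.1% of all tested genes were higher and lower in A375, and 20.6% and 19.9% in 1205Lu.

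Of the SMADs and their regulators, SKIL, which encodes the SMAD corepressor SnoN, rose in A375 from 46.8, 44.8 and 47.9 CPM to 103, 100.4 and 104 CPM (1.13, SE 0.04, edgeR adjusted p = 4.1e-17), with 0.40 (SE 0.04) in 1205Lu. The antiproliferative SMAD partner TOB1 had 0.67 (SE 0.04) in A375 and 0.87 (SE 0.03) in 1205Lu. SMAD1, a receptor-activated SMAD, had -0.04 (SE 0.12) in A375 and 0.57 (SE 0.08) in 1205Lu. In 1205Lu all 10 tested genes of this group were higher on the adjusted p alone, without a fold limit, beside 20.6% of all tested genes. With the fold limit 0 were called by edgeR. In A375, on the adjusted p alone, 3 of 10 were higher and 2 lower, beside 25.7% and 25.1% of all tested genes.

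FST, which encodes the activin and BMP antagonist follistatin, fell in A375 from 189, 191 and 194 CPM to 60.9, 55.0 and 56.8 CPM (-1.73, SE 0.04, edgeR adjusted p = 1.9e-21). In 1205Lu it was at 17.4 to 20.9 CPM with si-NT and 20.1 to 21.0 CPM with si-FRA1 (0.07, SE 0.08). HEY1, a transcriptional repressor downstream of both Notch and BMP signals, rose in both lines, from 0.50, 0.71 and 0.54 to 1.56, 0.83 and 1.66 CPM in A375 (1.2, SE 0.38, edgeR adjusted p = 0.010) and from 2.13, 2.13 and 2.79 to 4.33, 6.46 and 5.49 CPM in 1205Lu (1.19, SE 0.19, edgeR adjusted p = 4.2e-05). The A375 call for HEY1 was lost without si-FRA1 replicate 1 or 3 (edgeR adjusted p = 0.057 and 0.056). TCF3, which encodes E proteins that ID proteins bind, fell in A375 from 56.0, 57.2 and 58.8 to 22.8, 26.97 and 27.4 CPM (-1.17, SE 0.06, edgeR adjusted p = 5.8e-14), and its log2 fold change in 1205Lu was -0.49 (SE 0.04). The E-protein genes TCF4 and TCF12 had 0.06 and 0.23 in A375.

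**Figure D3:**
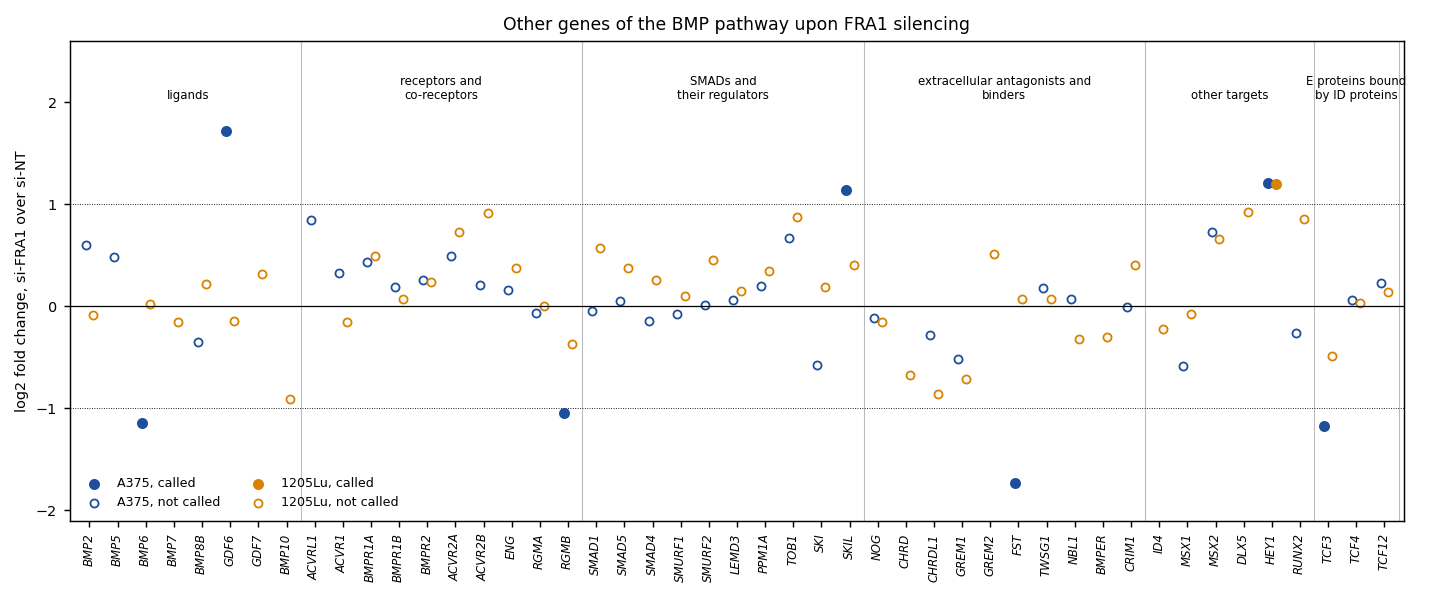
Log2 fold change upon FRA1 silencing (si-FRA1 over si-NT) of the tested genes of the BMP list, grouped by role along the x axis, in A375 (blue) and 1205Lu (orange). Filled points are called, open points are not, and dotted lines mark log2 fold changes of -1 and 1. GDF6 at 1.72 and FST at -1.73 in A375 are the outermost points.

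In the Cut&Run data, the FRA1 libraries held 3354095 to 5316527 counts in peaks in A375 and 583750 to 897407 in 1205Lu, and the single IgG libraries 383994 and 314569. The 1205Lu FRA1 replicates 2 and 3 agree within sampling noise (chi-square over degrees of freedom 1.012, where counting noise alone gives about 1, against 1.49 and 1.64 for the other pairs of that line) and were counted as 1 sample. The 61 peaks near the genes were distributed as 12 for SMAD7, 10 for ID1, 7 each for ID3 and SMAD6, 6 each for ATOH8 and MGP, 5 for BMP4, 4 for BAMBI, 3 for ID2 and 1 for SMAD9. Within 3 kb of a start there were 10 peaks, near ID1 (3), SMAD7 (3), ID3 (2), ID2 (1) and SMAD6 (1). The table held no such peak for ATOH8, MGP, SMAD9, BMP4 or BAMBI.

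Over the local IgG count, FRA1 was enriched in A375 at 38 of the 61 peaks, where 57.4% of all peaks were, and in 1205Lu at 2 of 61, where 7.09% were (4 without 1205Lu FRA1 replicate 1). A peak counted as enriched when each FRA1 library had 10 or more counts and also 4 or more times the sum of 1 and the IgG count, on unscaled counts. The A375 FRA1 libraries held far more counts in peaks than their IgG library. Such totals mix sequencing depth with FRA1 signal, and the rule on unscaled counts cannot tell them apart. With all libraries scaled to the same total in peaks, 0 of the 61 peaks were enriched in either line. Of all peaks, 1.21% were enriched on that scale in A375 and 3.67% in 1205Lu. This scaling also takes out the average excess of FRA1 over IgG in peaks, so it cannot show whether FRA1 was enriched. The counts are therefore not compared between the lines, and they carry counting error only. Of the 10 peaks at starts, 3 were enriched in A375 without scaling, at ID1, ID2 and SMAD7, and of the 51 other peaks 35 were.

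The sequence that AP-1 binds, TGACTCA or its complement TGAGTCA, occurred in 37 of the 61 peaks (60.7%), beside 57.7% of all peaks, and within 100 bp of the centre in 21, beside 28.6%. The peaks near the genes had a median width of 813 bp against 715 bp over all peaks. None of the 10 peaks at starts held it, whereas 37 of the 51 others did. The GC-rich element GGCGCC, which BMP-activated SMADs bind, was found in 15 of the 61 peaks and in 10.3% of all, and within 100 bp of the centre in 7, beside 3.28%. Of the 15 peaks, 7 lay near ID1. The bases G and C made up 46.2% to 59.5% of these ID1 peaks, beside a median of 43.9% over all peaks. The part of base composition and peak width in these shares was not tested. Of 9 genes matched to RefSeq promoter windows (GRCh38.p14, 250 bases before to 50 after a start), BMP4 and BAMBI held GGCGCC in any of their windows and 0 held the AP-1 sequence. Of all 35116 windows 19.2% and 4.95% held them. These shares are per window and the counts are per gene, with several windows for SMAD7 and BMP4, so they are not directly comparable. A match describes these letters only, and no match says only that they were not in the window.

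The windows below are shown because they hold the AP-1 sequence (capitals) inside peaks described below, 6 of them called between the lines and the SMAD7 peak not called. The BMP4 and ATOH8 sites lay at 560 and -335 bp from the peak centre, and those of the first MGP peak at -316 and 347 bp. Further matches in the other MGP peaks and in the ID1 and SMAD7 peaks are not printed. Whether FRA1 was bound at these windows was not tested. Each is 27 bases of GRCh38, plus strand, 5′ to 3′.
MGP peak 47.5 kb downstream of the start, chr12:14836395-14836421: ggctactaagTGACTCAcagtgtagac
MGP peak 47.5 kb downstream of the start, chr12:14837058-14837084: ggctactaagTGACTCAcagtgtagac
MGP peak 34.5 kb downstream of the start, chr12:14849713-14849739: ctcaacattcTGACTCAacttttcctc
MGP peak 24.6 kb upstream of the start, chr12:14910529-14910555: ttaggagccaTGAGTCAgatccatccc
ID1 peak 11.8 kb upstream of the start, chr20:31593404-31593430: tacattatcaTGAGTCAtagtatttga
SMAD7 peak 47.1 kb upstream of the start, chr18:48998105-48998131: cctgaaggacTGAGTCAaaagtagctg
BMP4 peak 41.2 kb upstream of the start, chr14:54000471-54000497: cagtttcaaaTGAGTCAtgattaaaac
ATOH8 peak 9.1 kb upstream of the start, chr2:85741890-85741916: gcctggccctTGACTCAcagctcccct
The first MGP peak holds the same 27 bases 2 times, 663 bp apart, which no other sequence among the 50 AP-1 matches near the genes does.

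FRA1 counts were then compared between A375 and 1205Lu with edgeR on the FRA1 samples. Of the 61 peaks, 10 were called higher in A375 and 6 higher in 1205Lu, beside 26.3% and 20.6% of 53300 tested peaks. With 1 library left out these counts were 8 to 12 and 4 to 9, the 9 without 1205Lu FRA1 replicate 1. The split was 15 and 4 when libraries were scaled by total counts alone, beside 16378 and 9702 over all tested peaks. With DESeq2 it was 8 and 7, beside 9496 and 11996 over all. These scalings shifted all peaks by a median of 0.19 and -0.20 on the log2 scale, so smaller differences are not read as directions. The values of single peaks below are on the TMM scale.

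MGP had peaks called in opposite directions. The peak 47.5 kb downstream of its start (chr12:14835967-14837481), in introns of ART4 and C12orf60, had 559, 833 and 643 FRA1 counts and 16 IgG counts in A375, and 16, 25 and 34 FRA1 counts and 8 IgG counts in 1205Lu. It was higher in A375 by 2.09 on the log2 scale (SE 0.24, edgeR adjusted p = 8.6e-08). The peak 24.6 kb upstream (chr12:14910075-14910890), between genes, had 118, 176 and 119 FRA1 counts and 3 IgG counts in A375, and 84, 143 and 129 FRA1 counts and 13 IgG counts in 1205Lu. Relative to the TMM-scaled totals this was higher in 1205Lu (log2 difference, A375 over 1205Lu, -2.44, SE 0.19, edgeR adjusted p = 8.8e-11), and it is 1 of the 2 peaks near the genes that were enriched over IgG in both lines on unscaled counts, beside 4.5% of all peaks. The other is the SMAD7 peak 47.1 kb upstream of its start.

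Another MGP peak, named after its values were seen, lay 34.5 kb downstream (chr12:14849516-14849997, in an intron of C12orf60). It had 5, 6 and 8 FRA1 counts in A375, with 3 in IgG, and 29, 64 and 55 in 1205Lu, with 8 in IgG. Its log2 difference of -5.59 (SE 0.31, edgeR adjusted p = 2.0e-13) was the lowest among the 61 peaks. By the rule on unscaled counts it was not enriched over IgG in either line. Whether any of these peaks acts on MGP was not tested.

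Around ID1, the peak 32.3 kb upstream in an intron of HM13 (chr20:31572065-31573900) had 317, 441 and 382 FRA1 counts in A375 and 33, 59 and 45 in 1205Lu and was not called (0.39, SE 0.21, edgeR adjusted p = 0.12). With only peaks of at least 10 counts in every sample it was at 1.005 and called (edgeR adjusted p = 6.2e-05), and without 1205Lu FRA1 replicate 1 it was at -0.0145. The peak 11.8 kb upstream (chr20:31592893-31594096), also chosen after its values were seen, had 322, 449 and 367 FRA1 counts with 8 in IgG in A375, and 8, 17 and 6 with 8 in IgG in 1205Lu. Its FRA1 counts in 1205Lu were thus near the IgG count, and it was higher in A375 by 2.50 (SE 0.27, edgeR adjusted p = 1.8e-08). The peak at the ID1 start (chr20:31604029-31605846) had 114, 188 and 127 counts with 23 in IgG in A375, and 20, 19 and 15 with 17 in IgG in 1205Lu, and was not called (0.26, SE 0.23, edgeR adjusted p = 0.37). The other start peaks of ID1, centred 2.06 kb upstream and 1.55 kb downstream, had 21 to 40 counts in A375 and 3 to 8 in 1205Lu.

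For ID2, the start peak (chr2:8678882-8679337) had 29, 46 and 33 counts in A375 and 7, 15 and 4 in 1205Lu (-0.65, SE 0.33, edgeR adjusted p = 0.10). The strongest of its peaks, 45.03 kb upstream, had 55, 67 and 60 counts in A375 and 7, 9 and 12 in 1205Lu, close to the 6 IgG counts there. For ID3, the strongest peak lay 17.7 kb upstream (chr1:23576720-23577756), with 163, 236 and 218 counts in A375 and 32, 69 and 60 in 1205Lu, and its log2 difference of -0.71 (SE 0.21, edgeR adjusted p = 0.0053) was below the fold limit. Without 1205Lu FRA1 replicate 1, a fit with 1 library in that line, it was at -1.21. The ID3 peaks centred 2.604 kb downstream and 2.71 kb upstream of a start had 18 to 96 counts in A375 and 2 to 12 in 1205Lu, and neither was enriched over IgG in either line. Neither was called, and the upstream one was at -1.28 in the same fit without 1205Lu FRA1 replicate 1.

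For SMAD7, the peak 47.1 kb upstream (chr18:48997369-48998816) had 446, 660 and 551 FRA1 counts with 25 in IgG in A375, and 59, 92 and 75 with 11 in IgG in 1205Lu. Relative to the totals these levels did not differ detectably (0.20, SE 0.20, edgeR adjusted p = 0.42). The peak at an internal start (chr18:48942340-48943228) had 115, 187 and 164 counts in A375 and 7, 13 and 5 in 1205Lu, and was higher in A375 by 1.504 (SE 0.27, edgeR adjusted p = 5.3e-05). The start peaks centred 0.96 kb downstream and 1.56 kb upstream had 9 to 44 counts in A375 and 3 to 11 in 1205Lu. Neither was called, but the downstream one was at -1.49 with DESeq2 (adjusted p = 0.044). The upstream one was at -1.01 without 1205Lu FRA1 replicate 1, a fit with 1 library in that line. For SMAD6, the start peak (chr15:66701270-66702081) had 23, 41 and 41 counts with 13 in IgG in A375, and 8, 2 and 7 with 14 in IgG in 1205Lu, the latter below IgG. Its strongest peak, in an intron 19.2 kb downstream of a start (chr15:66730582-66731118), had 82, 123 and 77 counts in A375 and 12, 25 and 19 in 1205Lu (-0.37, SE 0.25, edgeR adjusted p = 0.24).

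BMP4 had 3 of its 5 peaks called higher in A375. The strongest lay 41.2 kb upstream (chr14:53998892-54000956), with 168, 250 and 230 FRA1 counts and 20 IgG counts in A375 and 10, 5 and 3 FRA1 counts and 10 IgG counts in 1205Lu (2.44, SE 0.32, edgeR adjusted p = 5.6e-07). Its FRA1 counts in 1205Lu were at or below IgG. No BMP4 peak was called higher in 1205Lu.

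ATOH8 had 2 of 6 peaks called higher in 1205Lu relative to the TMM-scaled totals, neither of them enriched over IgG in that line. Their mean unscaled FRA1 counts were higher in A375, 40 against 29.25 and 65.3 against 22.5 (1205Lu replicates 2 and 3 averaged first). The strongest peak, over an exon of ATOH8 and 8.64 kb upstream of an internal start (chr2:85771689-85773092), had 118, 197 and 159 counts in A375 and 26, 38 and 36 in 1205Lu and was not called (-0.46, SE 0.20, edgeR adjusted p = 0.055). The peak 9.1 kb upstream of the first start (chr2:85741818-85742658), named after its values were seen, had 32, 48 and 40 FRA1 counts and 5 IgG counts in A375, and 33, 30 and 21 FRA1 counts and 16 IgG counts in 1205Lu. Relative to the TMM-scaled totals it was higher in 1205Lu (-2.22, SE 0.24, edgeR adjusted p = 3.1e-08), but the 1205Lu IgG count was also above that of A375. The other called peak, in an intron of ATOH8 (chr2:85765180-85766688), had 42, 87 and 67 FRA1 counts and 8 IgG counts in A375, and 25, 14 and 26 FRA1 counts and 23 IgG counts in 1205Lu (-1.14, SE 0.25, edgeR adjusted p = 0.00037), so its 1205Lu counts were near IgG. It was also named after its values were seen.

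BAMBI had 1 of 4 peaks called higher in 1205Lu, 48.8 kb upstream (chr10:28628299-28629099), with 26, 43 and 33 counts in A375 and 7, 13 and 12 in 1205Lu (-1.03, SE 0.32, edgeR adjusted p = 0.0092). This call was lost with scaling by totals alone (-0.83) and without 1205Lu FRA1 replicate 2 or 3 (-0.90 and -0.91). The IgG count at this peak was 5 in 1205Lu. The single peak near SMAD9, 45.3 kb upstream and at the start of ALG5 (chr13:36965948-36966410), had 16, 25 and 18 counts in A375 and 3, 0 and 1 in 1205Lu (1.13, SE 0.73, edgeR adjusted p = 0.20). Of the 61 peaks, 6 lay within 3 kb of the start of another protein-coding gene.

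**Figure D4:**
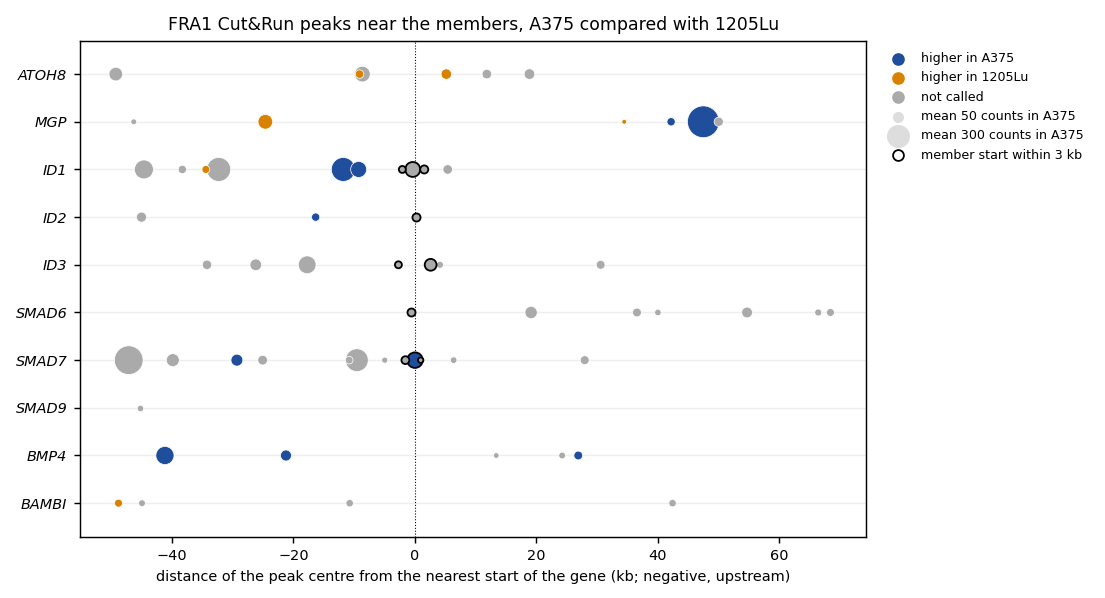
The 61 FRA1 Cut&Run peaks near the 10 genes, placed by the distance in kb of the peak centre from the nearest start of the gene (negative, upstream), 1 row per gene. Point area grows with the mean FRA1 count in A375, blue and orange mark peaks called higher in A375 and in 1205Lu, grey marks peaks not called, and a black rim marks a start of the gene within 3 kb. The called peaks of BMP4 are all blue, and those of ATOH8 are both orange. Calls are relative to the TMM-scaled totals.

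**Figure D5:**
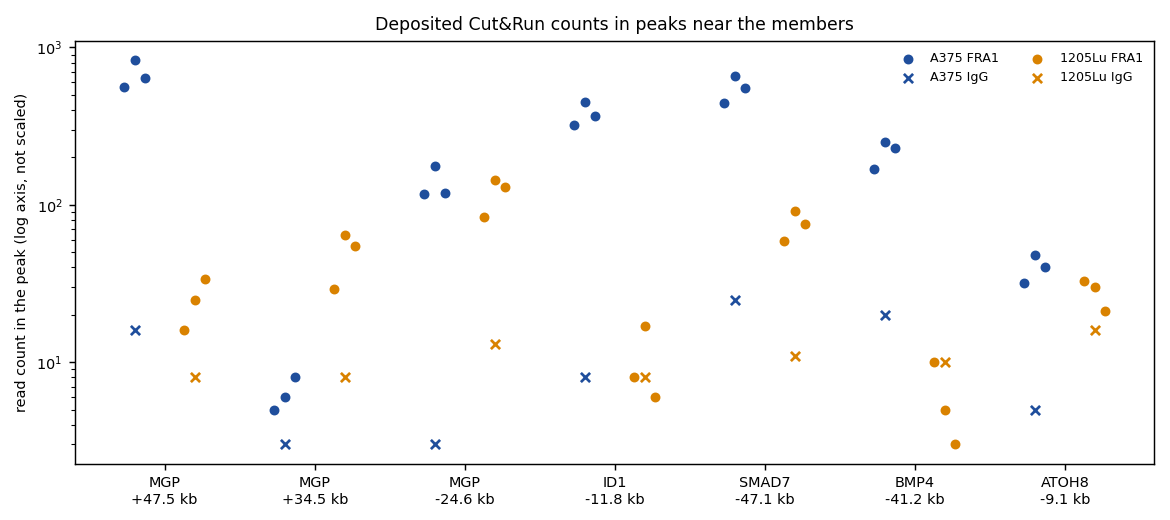
Deposited, unscaled Cut&Run counts on a log axis in 7 peaks near the genes, with each FRA1 library as a point and the single IgG library of each line as a cross, A375 in blue and 1205Lu in orange. Peaks are named by their distance in kb from the start. At the MGP peak 24.6 kb upstream the 1205Lu counts of 84 to 143 overlap those of A375 despite the lower totals, while at the MGP peak 34.5 kb downstream they exceed them.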

How the data were processed

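RNA-seq covered 12 samples and Cut&Run 8 samples. For RNA-seq, the authors trimmed reads (cutadapt 1.8.1), aligned them to GRCh38 (STAR 2.7.7a) and estimated counts per gene (RSEM 1.3.0, Gencode 30), and the deposited expected counts are whole and not normalized. In Cut&Run, the authors aligned reads (Bowtie2 2.4.1), called peaks (MACS2, q under 0.01), joined them into consensus peaks and deposited the read count of each sample per peak. Whether the calling used single or pooled samples is not given in the sources used here. Tool versions are from the submitters' processing notes.

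The expected counts were used as deposited. Fits were made across all genes or peaks with edgeR 4.0.16 in R 4.3.3 (filterByExpr, TMM, glmQLFit and glmQLFTest, Benjamini-Hochberg), each comparison on its own samples, the difference between lines as the interaction over all 12. The authors used DESeq2, which served here as an alternative (1.42.0). The members and gene lists were chosen with earlier results of these data known. Named genes were the 10 members, the listed genes called in either line, FOSL1 and, for ATOH8, MGP, ID1 and ID3, the 3 protein-coding genes with mean of at least 5 CPM most correlated with each. Named peaks were those at starts and, per member, the one with the highest mean count in either line; others are marked in the text. Log2 CPM used a prior count of 2. Distances and exon lengths are from GENCODE 44. Groups follow the sample labels. Alternatives were DESeq2, upper-quartile or other scaling, other filters, all samples in 1 fit, no fold limit, other IgG limits and windows, a replicate block and each sample left out. On simulated counts with log2 changes of 2, 200 of 200 changed genes were recovered for silencing in A375 (0 false calls, 16848 genes tested), 200 of 200 in 1205Lu (1 false call, 17148 genes) and 197 of 200 peaks (6 false calls, 52539 peaks). The fits gave a biological coefficient of variation of 4.51% in A375, 4.20% in 1205Lu and 9.85% for peaks.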

Additional observations from a re-analysis of the deposited data

Results flagged for a closer look

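The change upon FRA1 silencing differed between A375 and 1205Lu for 6 of the 7 named BMP-list genes by the interaction test over all 12 samples, beside 31.9% of 19452 tested genes at an adjusted p under 0.05. Over the whole list 27 of the 48 genes tested passed. The named genes had been picked for a call in 1 of the lines, so the count of 6 is a description and is not comparable with that share. For FST the log2 fold change in A375 was lower than in 1205Lu by -1.81 (edgeR adjusted p = 2.0e-15), and for GDF6 it was higher by 1.85 (edgeR adjusted p = 0.00062). For SKIL it was higher by 0.72 (edgeR adjusted p = 5.3e-11), while for RGMB and TCF3 the differences were -0.68 and -0.70 (edgeR adjusted p = 3.6e-08 and 9.7e-08). For BMP6 it was -1.13 (edgeR adjusted p = 0.012), and -0.75 with an adjusted p of 0.055 without A375 si-FRA1 replicate 2, whose BMP6 count was 3. For HEY1 the difference was 0.002 (edgeR adjusted p = 0.996), which does not show that the lines respond alike.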

How the results depend on the processing

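The number of the 10 genes called higher upon silencing was 6 in A375 and 4 in 1205Lu with each sample left out. It was the same in every other alternative with a fold limit. Without a fold limit it was 8 in 1205Lu, beside 20.6% of all tested genes there. The A375 count also depends on that limit, with SMAD6 at 0.79 (SE 0.07) and BAMBI at 0.71 (SE 0.22). Leaving out single samples gave 0 to 1 of the 10 genes lower in A375 (SMAD9, without si-FRA1 replicate 2). At baseline, 5 rather than 7 were higher in 1205Lu with no filter or with all 12 samples in 1 fit, where ID3 and SMAD7 fell just under the fold limit.

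For the BMP list, counts without a fold limit were 16 higher and 8 lower of 39 tested in A375, beside 25.7% and 25.1% of all tested genes. In 1205Lu they were 22 higher and 4 lower of 45 tested, beside 20.6% and 19.9%. With the fold limit and all 12 samples in 1 fit, 7 list genes were lower in A375, and 2 were higher and 2 lower in 1205Lu. With no filter 2 were lower in 1205Lu. Leaving out samples gave 1 to 2 higher (2 without si-FRA1 replicate 3) and 0 to 1 lower in 1205Lu (1 without si-FRA1 replicate 1 or 2 or si-NT replicate 3). The cause of these shifts was not tested.

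Same-numbered samples did not deviate together (correlations from -0.016 to 0.019), so the replicate numbers do not pair the samples. With a replicate block 1 list gene was lower in 1205Lu, 28 list genes passed the interaction test, the HEY1 interaction was -0.027, and 9 and 5 peaks near the genes were higher in A375 and in 1205Lu.

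Peaks near the genes numbered 25 within 10 kb and 97 within 100 kb, of which 14 and 60 were enriched over IgG in A375 and 0 and 4 in 1205Lu. At 8 times IgG 17 and 0 peaks were enriched, at 2 times IgG 6 in 1205Lu, and with equal totals in peaks 0 and 0. With a library left out 2 to 4 were enriched in 1205Lu (4 without replicate 1). With at least 10 counts in every sample 4 and 2 peaks were called higher in A375 and in 1205Lu. That setting tests fewer peaks and also shifted differences such as that of the ID1 intronic peak (1.005), and the part of each was not tested. Without scaling 58 and 1 were called, beside 45679 and 3513 over all tested peaks. The AP-1 sequence was within 100 bp of the centre in 21.

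Without scaling, which shifted all peaks by a median of 2.69, these peak differences turned positive: ATOH8 2.30 (0.17 with at least 10 counts), MGP upstream 0.31, ID1 start 2.03, ID2 start 2.07 and distal 2.73, ID3 start 2.08 and upstream 2.06, SMAD6 start 2.56 and intron 2.404 (0.27 with at least 10 counts), SMAD7 starts 1.41 and 1.99, and BAMBI 1.72. Uncalled values near 0 changed sign for the distal ID2 peak (0.018 with 1205Lu replicates 2 and 3 separate, 0.045 with the block, 0.19 by totals) and the SMAD6 start peak (0.10 by totals). With samples left out, the ranges spanned 0 for the ID1 intronic peak (-0.0145 to 0.55), the distal ID2 peak (-0.36 to 0.25), the SMAD6 start peak (-0.52 to 0.13), the distal SMAD7 peak (-0.16 to 0.30), the HEY1 interaction (-0.16 to 0.23), and BMP6 (-0.0069 to 0.051) and GDF6 (-0.41 to 0.12) in 1205Lu.

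With si-NT, SMAD7 had 43 to 65 counts and BAMBI 42 to 59 counts in A375. In 1205Lu si-NT, MGP had 37 to 75 counts and SMAD6 58 to 104 counts. Low counts limit MGP, ID2, SMAD7, SMAD9 and BAMBI in A375, and MGP, SMAD6, BMP4 and nearly all peaks in 1205Lu. There, FRA1 counts near IgG make a lower level undetectable.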
